A study of Mus musculus with 8 samples.

Results

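The paired immune receptors are families of cell surface proteins in which closely related members either dampen or start signalling in myeloid cells. Genes were taken by the start of their symbol (Siglec, Cd300, Trem, Lilr, Pira, Pirb, Pilr, Sirp or Cd200r) where a probe set carried that symbol alone. This gave 33 of the 19938 genes measured, each on its own probe set: 11 inhibitory, 18 activating and 4 of neither kind or of unsettled role. Bone marrow-derived mouse macrophages, differentiated over 10 days in 10 ng/ml M-CSF, were starved of serum overnight and given 50 ng/ml IL-6 for 4 hours. The 4 control cultures (Ctrl) came from IL6ralpha flox/flox mice and the 4 deficient cultures (IL6raKO) from IL6ralpha flox/flox LysMCre tg/wt mice, in which Cre is driven from the lysozyme locus of myeloid cells. Both groups carried the floxed alleles and both received IL-6, and only IL6raKO carried Cre, so the deletion and Cre itself cannot be told apart. Age, sex and whether each replicate was a separate animal are not in the labels, so p-values measure only the spread between these 8 samples.

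Most inhibitory members carry immunoreceptor tyrosine-based inhibitory motifs (ITIMs) in their tail, which recruit phosphatases such as the product of Ptpn6. Cd200r1 has no ITIM and signals through the adaptors Dok1 and Dok2. Activating members have short tails and pair through a charged residue in the membrane with the adaptors Tyrobp or Fcer1g, which recruit the kinase Syk. Macrophages carry many of both kinds, and the balance between them is known to set thresholds for phagocytosis, cytokine release and the clearance of dying cells. The comparison asks whether the balance of these receptors differs between IL-6-exposed macrophages with and without an intact Il6ra gene.

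In the Pilr genes and in Pirb with Lilra6, the promoters of an inhibitory gene and its activating relative were nearly the same sequence, which was not so for the other pairs compared. Promoters of RefSeq genes (GRCm38.p6, 250 bases before to 50 after the start) were found for 25 of the 33 members. The 8 without one were Cd200r1, Cd300lg, Lilrb4a, Siglec1, Siglec15, Sirpa, Trem3 and Treml2. No pair with the inhibitory Cd200r1, Lilrb4a or Sirpa could therefore be compared. Compared without gaps at the best offset, the promoter of the inhibitory Pilra matched that of the activating Pilrb2 at 244 of 246 bases and that of Pilrb1 at 242 of 246. The inhibitory Pirb and the activating Lilra6 matched at 259 of 270 bases. The next closest pair of an inhibitory and an activating member in a family, Treml1 and Trem2, matched at 36.4% of 165 bases. The stretches shown first are 120 bases of the Pilr promoters (chr5:137836279-137836398, chr5:137858104-137858223 and chr5:137871813-137871932, all on the minus strand), with capitals at the bases that differ from Pilra. They show how near to each other the regulatory sequences of an inhibitory and an activating partner can be.
Pilra: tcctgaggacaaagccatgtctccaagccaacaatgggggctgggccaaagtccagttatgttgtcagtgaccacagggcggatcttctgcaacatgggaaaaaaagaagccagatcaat
Pilrb1: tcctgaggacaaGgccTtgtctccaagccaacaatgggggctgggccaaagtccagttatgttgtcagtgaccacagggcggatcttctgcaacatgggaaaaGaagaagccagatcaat
Pilrb2: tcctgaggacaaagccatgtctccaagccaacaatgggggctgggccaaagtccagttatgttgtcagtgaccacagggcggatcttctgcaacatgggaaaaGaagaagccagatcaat

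The matching stretches of Pirb and Lilra6 (chr7:3720449-3720548 and chr7:3915598-3915697, both on the minus strand) hold the letters GAGGAAGT in capitals, a form bound by PU.1, a transcription factor of myeloid cells.
Pirb: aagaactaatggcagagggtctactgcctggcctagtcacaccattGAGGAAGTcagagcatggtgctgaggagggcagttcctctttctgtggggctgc
Lilra6: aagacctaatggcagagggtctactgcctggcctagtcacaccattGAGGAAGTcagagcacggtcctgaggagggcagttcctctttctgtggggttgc
On either strand, GAGGAAGT was present in a promoter of 4 of the 25 members, Pirb, Lilra6, Cd300ld and Cd300lf. Of 32851 promoters of the same length, 3.2% held it. A member counted if any promoter listed for it held the letters. The share over all counted each promoter singly, so the units differ. As the promoters of Pirb and Lilra6 are nearly the same sequence, their matches are not separate occurrences. The match in Cd300lf lies at bases 0 to 7 from the start and not before it.

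The letters TTCNNNGAA read the same on both strands and can be bound by STAT factors, the factors that IL-6 activates. They were in a promoter of 5 of the 25 members, against 8.3% of all promoters, with the same difference of units. None of these matches overlapped a GAGGAAGT. The 61 bases around each are shown because their genes allow the values below to be read beside the letters, which are capitals here. The stretches are chr7:55768035-55768095 (plus strand), chr17:48232542-48232602 (plus), chr11:115062189-115062249 (minus), chr7:4237621-4237681 (plus) and chr10:51480482-51480542 (plus), in the order printed.
Siglech: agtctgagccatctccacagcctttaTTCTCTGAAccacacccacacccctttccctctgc
Trem1: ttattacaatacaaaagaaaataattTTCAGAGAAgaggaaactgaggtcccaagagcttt
Cd300e: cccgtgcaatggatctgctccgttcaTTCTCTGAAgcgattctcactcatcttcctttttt
Lilra5: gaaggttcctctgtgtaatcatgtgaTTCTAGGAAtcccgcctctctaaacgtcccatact
Lilr4b: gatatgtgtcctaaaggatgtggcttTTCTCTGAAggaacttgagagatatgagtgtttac
Both sets of letters and the promoters shown were chosen after the results were seen. A match is a description of the letters and shows no binding. The differences between IL6raKO and Ctrl of these 5 genes were 0.14 for Siglech, 0.17 for Trem1, -0.04 for Cd300e, 0.03 for Lilra5 and 0.02 for Lilr4b on the log2 scale, and no limma adjusted p among them was under 0.758.

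None of the 33 receptor genes passed the test between the genotypes. In limma with Benjamini-Hochberg adjustment over all genes, 0 of the 33 had an adjusted p under 0.05, where 0.0301% of all genes (6, all lower in IL6raKO) did. The lowest adjusted p of a member was 0.703, for Pilra. At an unadjusted p under 0.05, 0 of the 33 members passed, where 7.28% of all genes did. No member had 4 IL6raKO values entirely above or below its 4 Ctrl values, where 4.44% of all genes did. The members' differences ran from -0.24 (Cd200r3) to 0.18 (Pilra), with a median size of 0.03 regardless of sign, beside 0.06 over all genes. The median standard error was 0.08 for both.

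**Figure D1:**
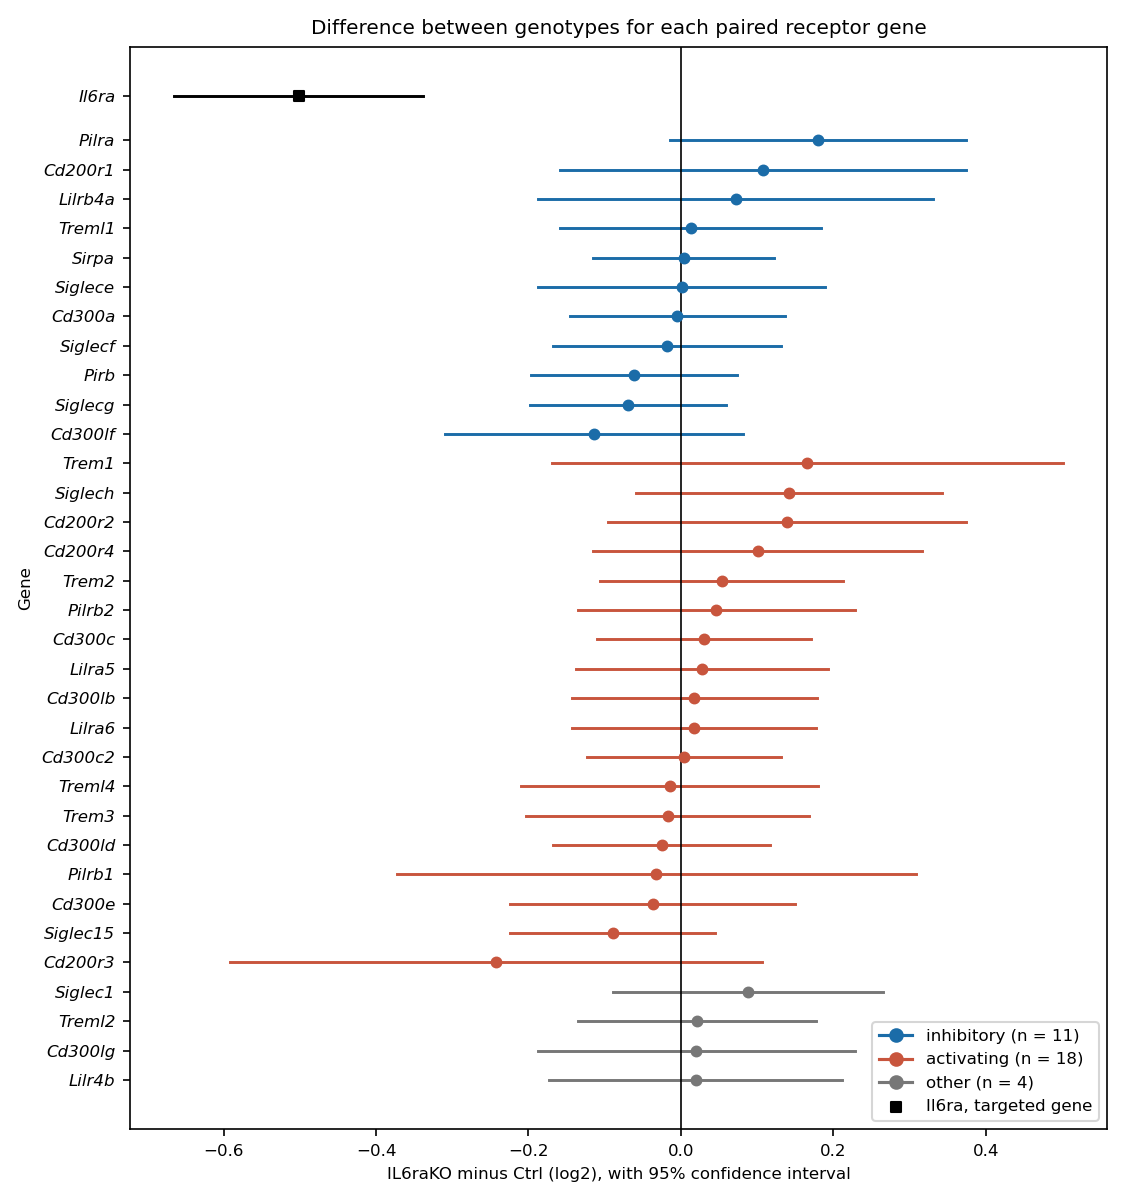
Difference in log2 expression between IL6raKO and Ctrl (horizontal axis) for the 33 receptor genes, with lines for the 95% confidence interval in limma and colours for inhibitory, activating and other members; the square is Il6ra, the targeted gene, at -0.50. The intervals of all 33 receptor genes cross 0, from the narrow one of Sirpa to the wide ones of Cd200r3 and Trem1.

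The intervals bound how large a difference in the array values could have been. Dim signal limits what this means for transcripts of the 15 members below the median of all genes. The 95% confidence intervals of all 33 members included 0, and those of 14 lay within 0.2 on either side of it. Il6ra, the targeted gene, was at 8.43, 8.40, 8.40 and 8.45 in Ctrl and at 7.75, 8.10, 7.91 and 7.92 in IL6raKO, without overlap. Its difference was -0.50 (95% confidence interval -0.66 to -0.34, limma adjusted p = 0.0607). For 32 of the 33 members the interval excluded a fall as large as that of Il6ra, and Cd200r3 was the exception (-0.59 to 0.11). The direction of such small differences depended on scaling. Of the members, 21 were higher and 12 lower in IL6raKO as deposited, but 11 were higher and 22 lower when each array was centred on its 75th percentile.

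**Figure D2:**
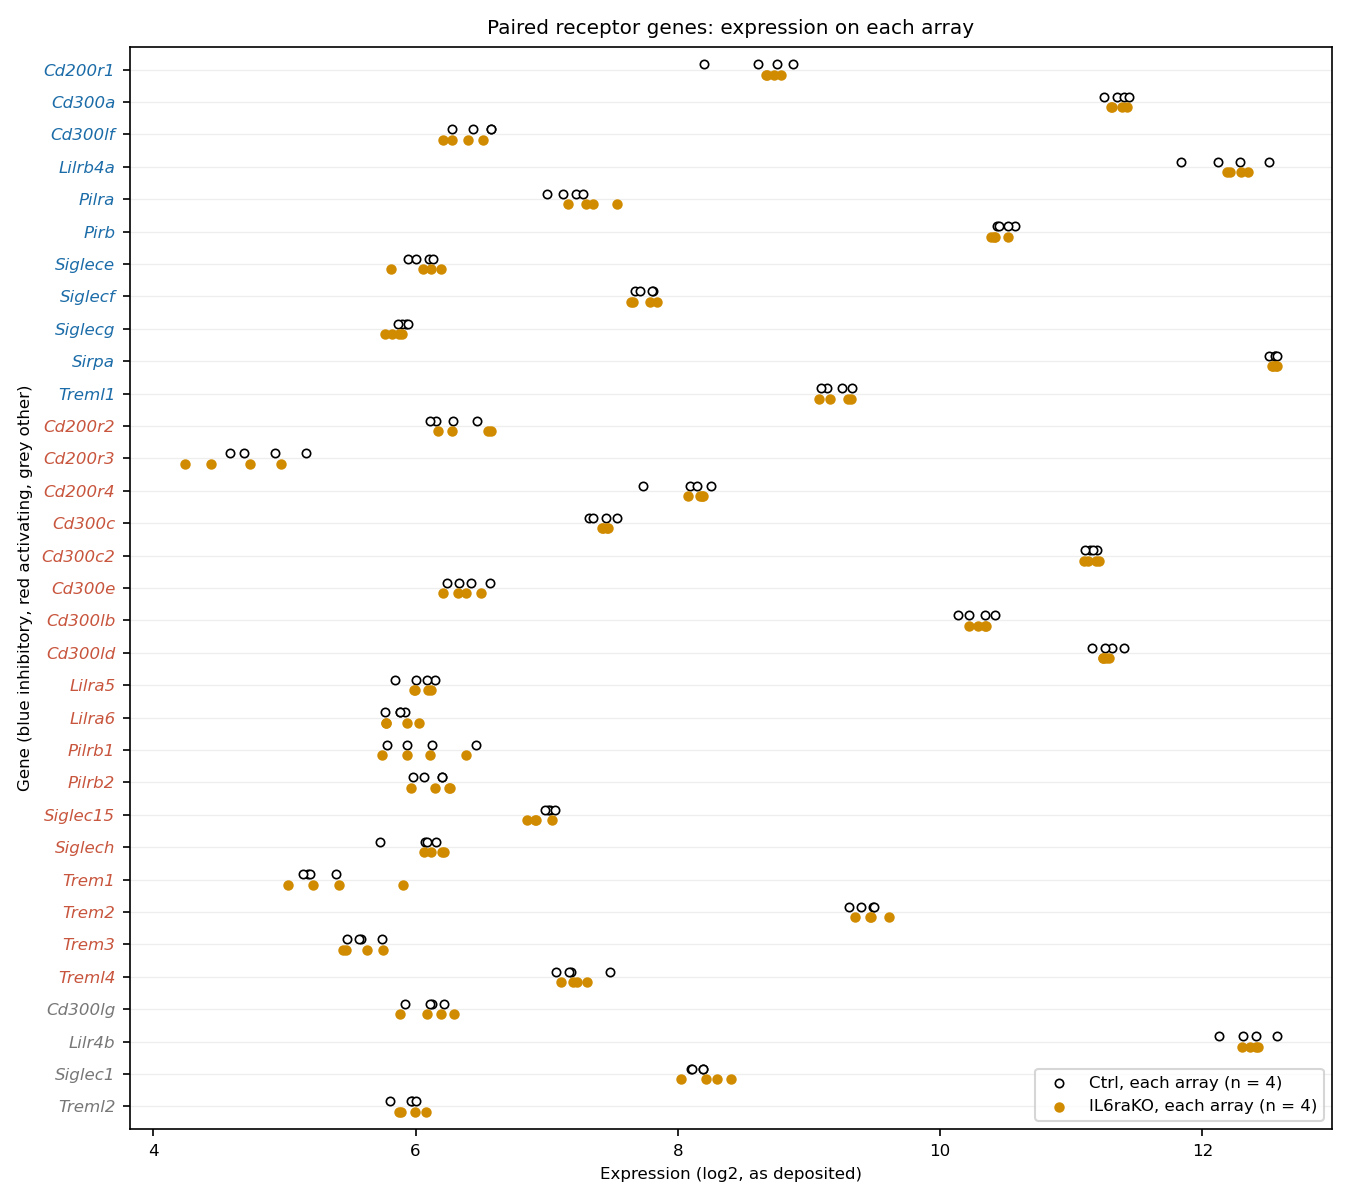
Log2 expression as deposited (horizontal axis) of the 33 receptor genes on each of the 8 arrays, with open circles for Ctrl and filled circles for IL6raKO (n = 4 each); gene names are coloured by class. For every gene the values of the groups overlap, and the spread within a group differs much between genes, from Sirpa to Cd200r3.

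Among the inhibitory receptors, Sirpa was the most tightly measured. Sirpa binds CD47 and restrains phagocytosis. It was at 12.55, 12.51, 12.55 and 12.57 in Ctrl and at 12.56, 12.57, 12.53 and 12.54 in IL6raKO. The groups lay on top of each other, with a difference of 0.00 (SE 0.05) and an interval from 92.3% to 109% of the control level. Cd300a, an ITIM receptor for phosphatidylserine and phosphatidylethanolamine on dying cells, was at 11.25, 11.35, 11.40 and 11.44 in Ctrl and 11.42, 11.30, 11.31 and 11.39 in IL6raKO. The groups interleaved, and the interval spanned 90.4% to 109.9% of the control level. Pirb, the ITIM receptor that binds MHC class I, was at 10.57, 10.52, 10.44 and 10.45 in Ctrl and 10.52, 10.39, 10.41 and 10.42 in IL6raKO. In 3 of the 4 IL6raKO arrays Pirb lay just below every Ctrl value, and IL6raKO replicate 1 lay within the Ctrl range. The difference was -0.06 (SE 0.06, limma adjusted p = 0.85).

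Pilra, an ITIM receptor of myeloid cells, had the lowest p of the families. Its values were 7.22, 7.001, 7.28 and 7.12 in Ctrl and 7.35, 7.16, 7.53 and 7.30 in IL6raKO. Replicates 1, 3 and 4 of IL6raKO lay above all Ctrl values, and replicate 2 lay among them. The difference was 0.18 (SE 0.09, 95% confidence interval -0.01 to 0.37), which is 113% of the control level. It did not pass over all genes, and the exact two-sided permutation test over the 8 arrays gave p = 0.114, where the smallest p the design allows is 0.0286. Without IL6raKO replicate 3, the highest array, the difference was 0.12 (limma adjusted p = 0.897).

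Cd200r1, which restrains myeloid cells on binding CD200, and Lilrb4a, an ITIM receptor also called gp49B, both depended on 1 control array. Cd200r1 was at 8.88, 8.76, 8.61 and 8.20 in Ctrl and between 8.67 and 8.79 in IL6raKO, a difference of 0.11 (SE 0.12). Ctrl replicate 4 was the lowest of the 8 arrays, and without it the difference was -0.03. Lilrb4a was at 12.51, 12.29, 12.12 and 11.84 in Ctrl and between 12.19 and 12.35 in IL6raKO, a difference of 0.07 (SE 0.12). Ctrl replicate 4 was again lowest, and without it the difference was -0.04. In both genes the Ctrl arrays were spread far more widely (SD 0.30 and 0.28) than the IL6raKO arrays (SD 0.05 and 0.07).

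The other 5 inhibitory members differed by between -0.11 and 0.01. Cd300lf, an ITIM member of the CD300 family that binds phosphatidylserine, was at 6.28, 6.58, 6.44 and 6.57 in Ctrl and 6.40, 6.21, 6.52 and 6.28 in IL6raKO, with widely overlapping groups and a difference of -0.11 (SE 0.09, limma adjusted p = 0.796). Treml1, best known from platelets, had group means of 9.20 (SD 0.11) in Ctrl and 9.22 (SD 0.12) in IL6raKO. Of the inhibitory Siglecs, which bind sialic acid, Siglecf of eosinophils and alveolar macrophages differed by -0.02 (SE 0.07). Its values were 7.81, 7.67, 7.72 and 7.80 in Ctrl and 7.84, 7.66, 7.64 and 7.78 in IL6raKO, with the groups interleaved. Siglece, a Siglec of neutrophils and macrophages, was at 5.94, 6.002, 6.10 and 6.13 in Ctrl and 6.12, 5.82, 6.19 and 6.06 in IL6raKO, a difference of 0.00 (SE 0.09). Siglecg, known from B cells, was at 5.93, 5.90, 5.87 and 5.94 in Ctrl and 5.90, 5.82, 5.76 and 5.87 in IL6raKO, a difference of -0.07 (SE 0.06, limma adjusted p = 0.816). Replicates 2 and 3 of IL6raKO lay below every Ctrl value of Siglecg and the other two reached into the Ctrl range. Siglece, Siglecg and Cd300lf were below the median of all genes (6.43).

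The activating CD300 receptors showed differences of at most 0.04 in size. Cd300c2 was at 11.20, 11.15, 11.17 and 11.11 in Ctrl and 11.19, 11.13, 11.21 and 11.10 in IL6raKO, a difference of 0.00 (SE 0.06). Cd300lb, which pairs with Tyrobp, was at 10.34, 10.42, 10.14 and 10.22 in Ctrl and 10.35, 10.34, 10.22 and 10.29 in IL6raKO, a difference of 0.02 (SE 0.07). In both genes the IL6raKO values were interleaved with those of Ctrl. Cd300ld, which pairs with Fcer1g, differed by -0.03 (SE 0.07) and Cd300c by 0.03 (SE 0.06). Cd300e, found on monocytes, was at 6.24, 6.33, 6.42 and 6.57 in Ctrl and 6.499, 6.21, 6.32 and 6.38 in IL6raKO, a difference of -0.04 (SE 0.09). For these 5 genes, the intervals together reached from -0.22 (Cd300e) to 0.18 (Cd300lb).

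Of the activating TREM receptors, Trem2, which senses lipids and apoptotic cells and signals through Tyrobp, was at 9.39, 9.31, 9.49 and 9.49 in Ctrl and 9.61, 9.46, 9.48 and 9.35 in IL6raKO. The groups overlapped widely, and the difference was 0.05 (SE 0.07, limma adjusted p = 0.896). Trem1, which amplifies inflammatory signals in neutrophils and monocytes, was dim, at 5.18, 5.39, 5.19 and 5.14 in Ctrl and 5.03, 5.42, 5.91 and 5.21 in IL6raKO. IL6raKO replicate 3 stood above the other arrays, and the remaining values of the groups were mixed. The difference was 0.17 (SE 0.15), and without that array it was -0.01. Trem3, also a partner of Tyrobp, and Treml4 differed by -0.02 (SE 0.08) and -0.01 (SE 0.09). Treml4 was highest in Ctrl replicate 4 (7.48, with 7.07 to 7.31 in the other 7 arrays).

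Of the activating CD200 receptor relatives, 2 had positive and 1 a negative difference, and none passed. Cd200r4, which pairs with Tyrobp, was at 8.25, 8.09, 8.14 and 7.74 in Ctrl and between 8.08 and 8.19 in IL6raKO. Its difference of 0.10 (SE 0.10) rested on the low Ctrl replicate 4 and was -0.01 without it. Cd200r2 was at 6.47, 6.29, 6.16 and 6.11 in Ctrl and 6.28, 6.55, 6.57 and 6.17 in IL6raKO, a difference of 0.14 (SE 0.11). The groups overlapped, with replicates 2 and 3 of IL6raKO above every Ctrl array.

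Cd200r3, known from basophils and mast cells, had the largest difference by size of all 33 members and the widest interval. It was at 4.58, 4.69, 4.92 and 5.17 in Ctrl and 4.44, 4.74, 4.24 and 4.97 in IL6raKO, all far below the median of all genes. The groups overlapped, although the highest value was a Ctrl array and the lowest an IL6raKO array. The difference was -0.24 (SE 0.16, 95% confidence interval -0.59 to 0.11, limma adjusted p = 0.76). It was -0.13 without Ctrl replicate 4 and -0.12 without IL6raKO replicate 3. Of 14 mast cell, basophil and eosinophil markers, 12 were lower in IL6raKO, where 54.2% of all genes were. Of these 14, 0 passed over all genes, where 0.0301% of all genes did. Their mean log2 level per array ran from 6.02 to 6.47 in Ctrl and from 5.82 to 6.29 in IL6raKO. The arrays with the highest marker level of their group, Ctrl replicate 4 and IL6raKO replicate 4, were also those with the highest Cd200r3. Ctrl replicate 1 was the lowest Ctrl array in both (4.58 and 6.02). Replicates 2 and 3 of Ctrl were close in marker level (6.20 and 6.19) and in the reverse order in Cd200r3 (4.69 and 4.92). Replicates 1, 2 and 4 of IL6raKO rose in the same order in both. The order also broke at IL6raKO replicate 3, which had the lowest Cd200r3 of the 8 arrays and a marker level of 6.09. IL6raKO replicate 1 had the lowest marker level (5.82) and not the lowest Cd200r3. Array values have no true zero. The dimmest of the markers were Il5ra (3.86 in Ctrl, 3.91 in IL6raKO), Epx and Fcer1a, while Cpa3 was at 8.44 and 8.07. The part of these cells in the Cd200r3 values was not tested, and fewer cells of a type and less RNA per cell cannot be told apart in such cultures.

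The other activating members were Siglecs, Pilrb genes and Lilra genes. Siglech, a Tyrobp partner known from plasmacytoid dendritic cells and microglia, was at 6.07, 5.73, 6.09 and 6.16 in Ctrl and 6.22, 6.20, 6.12 and 6.07 in IL6raKO. Ctrl replicate 2 lay below the other 7 arrays, and the difference of 0.14 (SE 0.09) was 0.05 without it. Siglec15, a Tyrobp partner known from osteoclasts, was at 7.02, 7.01, 6.98 and 7.06 in Ctrl and 7.04, 6.92, 6.91 and 6.85 in IL6raKO. Replicates 2 to 4 of IL6raKO were below every Ctrl array and replicate 1 was not. The difference was -0.09 (SE 0.06, limma adjusted p = 0.772).

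Pilrb1 and Pilrb2, the activating partners of Pilra with the nearly identical promoters printed above, differed by -0.03 (SE 0.16) and 0.05 (SE 0.08). Pilrb1 varied widely within both groups, at 6.13, 5.78, 5.94 and 6.46 in Ctrl and 6.39, 5.75, 5.93 and 6.11 in IL6raKO. Lilra5 differed by 0.03 (SE 0.08) and Lilra6, the partner of Pirb, by 0.02 (SE 0.07). These 4 were all below the median of all genes. Whether Pilra differed from its partners was not tested.

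The 4 members outside both classes had positive differences that did not pass. Siglec1, or sialoadhesin, a macrophage receptor that binds sialic acid without a known signalling motif, was at 8.19, 8.19, 8.10 and 8.11 in Ctrl and 8.22, 8.30, 8.41 and 8.02 in IL6raKO. Replicates 1 to 3 of IL6raKO lay above the Ctrl arrays and replicate 4 below them, with a difference of 0.09 (SE 0.08, limma adjusted p = 0.835). It was 0.03 without IL6raKO replicate 3 and 0.16 without IL6raKO replicate 4. Lilr4b, the gp49A relative of Lilrb4a that lacks ITIMs, differed by 0.02 (SE 0.09), and Ctrl replicate 4 was its lowest array too (12.13, with 12.30 to 12.57 in the others). Without that array its difference was -0.06. Cd300lg, known from endothelium, and Treml2 differed by 0.02 each.

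Set side by side, the classes had similar medians, and their difference was not tested. The 18 activating members had a median difference of 0.02, with 11 higher and 7 lower in IL6raKO. The 11 inhibitory members had a median of 0.00, with 6 higher and 5 lower. Over all genes the median was -0.01, with 54.2% lower. Centred on the 75th percentile, the medians were -0.01 (7 higher, 11 lower) for activating and -0.03 (3 higher, 8 lower) for inhibitory members, and with quantile normalization applied again the inhibitory members split into 4 higher and 7 lower. Per array, the median deviation of the activating members from their means over the 8 arrays ran from -0.03 to 0.04 in Ctrl and from -0.02 to 0.06 in IL6raKO. That of the inhibitory members ran from -0.01 to 0.04 in Ctrl and from -0.05 to 0.07 in IL6raKO. Both ranges overlapped between genotypes. Members of a class were chosen with earlier results known, so these counts and medians carry no test.

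**Figure D3:**
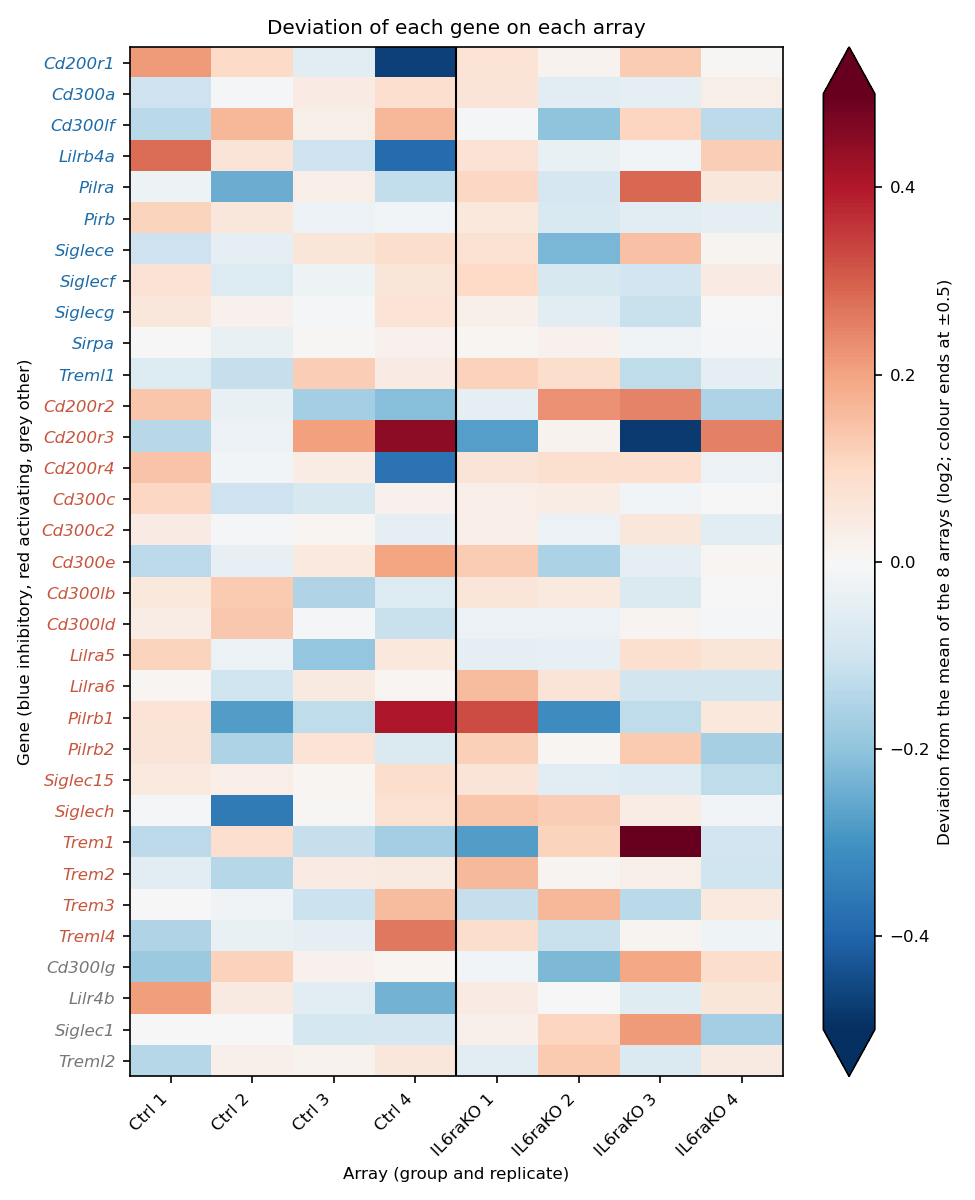
Deviation of each receptor gene (rows, coloured names by class) on each array (columns) from its mean over the 8 arrays, on the log2 scale, with red above and blue below the mean and the colour ending at ±0.5. No block of colour follows the line between Ctrl and IL6raKO, while Ctrl replicate 4 is low for Cd200r1, Lilrb4a and Cd200r4 and high for Cd200r3, Pilrb1 and Treml4.

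Several receptors deviated together in Ctrl replicate 4. Ctrl replicate 4 stood apart from the others over all genes (21.5 on the first principal component, with the other 7 between -6.6 and 4.82). Among the receptors it was not alone in this. It held the highest value of 7 members and the lowest of 6, IL6raKO replicate 3 the highest of 8 and the lowest of 5, and Ctrl replicate 1 the highest of 7 and the lowest of 3. The largest single deviation from a gene's mean was that of Trem1 in IL6raKO replicate 3 (0.60). The median size of the members' deviations was 0.08 in Ctrl replicate 4, beside 0.10 over all genes. In Ctrl replicate 1 it was 0.10, beside 0.07 over all genes. Relative to the mean of the other Ctrl arrays, Cd200r1 was 0.55 lower in Ctrl replicate 4, Lilrb4a 0.47, Cd200r4 0.42 and Lilr4b 0.30. These 4 are neighbours in pairs, Lilrb4a beside Lilr4b and Cd200r1 beside Cd200r4 in the RefSeq gene order. Cd200r2 and Cd200r3 follow Cd200r4 in the same run. Cd200r2 was 0.19 lower in Ctrl replicate 4, and Cd200r3 went the other way. In the other direction Pilrb1 was 0.52 higher, Cd200r3 0.43 and Treml4 0.34. In the same array the mean of 9 measured macrophage markers was the lowest of the 8 (11.59, with 11.63 to 11.73 in the others). Those of all 5 other marker lists (mast cell with basophil and eosinophil, neutrophil, B cell, dendritic cell, T and NK cell) were the highest. The lead over Ctrl replicate 3 was small for the dendritic cell list, which also holds Klrk1 (7.31 and 7.30). It was small for the T and NK cell list too (5.48 and 5.45). The median deviation over all genes was also highest in Ctrl replicate 4 (0.03). The part of other cells, or of this shift over all genes, in the deviations of the receptors was not tested.

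Some receptors could only be measured together with their relatives. Probe sets shared by Sirpb1a, Sirpb1b and Sirpb1c, activating partners of Sirpa, numbered 4 and differed by between -0.01 and 0.09. Another 2, shared by Cd300ld3, Cd300ld4 and Cd300ld5, differed by -0.08 and -0.07 (SE 0.05 each). The 2 shared by Pirb, Lilra6, Pira1, Pira2 and 2 gene models differed by -0.08 (SE 0.06) and -0.04 (SE 0.08). In all 8 the groups overlapped, and the lowest limma adjusted p among these 8 was 0.847, with the adjustment made over all probe sets. As the genes of such a cluster are so alike, probe sets named for 1 of them, such as Pirb, Lilra6, Lilrb4a and Lilr4b, may also bind transcripts of a relative, and their values are uncertain to that extent.

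The signalling partners and ligands of the receptors were also without a call. Of a list of 56 adaptors, kinases, phosphatases, ligands and sialic acid genes, 54 were measured and 0 passed in limma over all genes. At an unadjusted p under 0.05, 3 were higher and 2 lower, where 2.74% and 4.54% of all genes were. The median difference was 0.01, with 29 higher and 25 lower as deposited, 18 and 36 with 75th percentile centring, and 23 and 31 with quantile normalization applied again. Of the adaptors that activating members pair with, Tyrobp was at 12.21, 12.33, 12.21 and 12.20 in Ctrl and 12.16, 12.21, 12.19 and 12.28 in IL6raKO, a difference of -0.03 (SE 0.06). Fcer1g was at 12.07, 11.98, 12.01 and 11.94 in Ctrl and 12.09, 12.05, 11.97 and 11.96 in IL6raKO, a difference of 0.02 (SE 0.06). For both adaptors the groups overlapped widely.

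**Figure D4:**
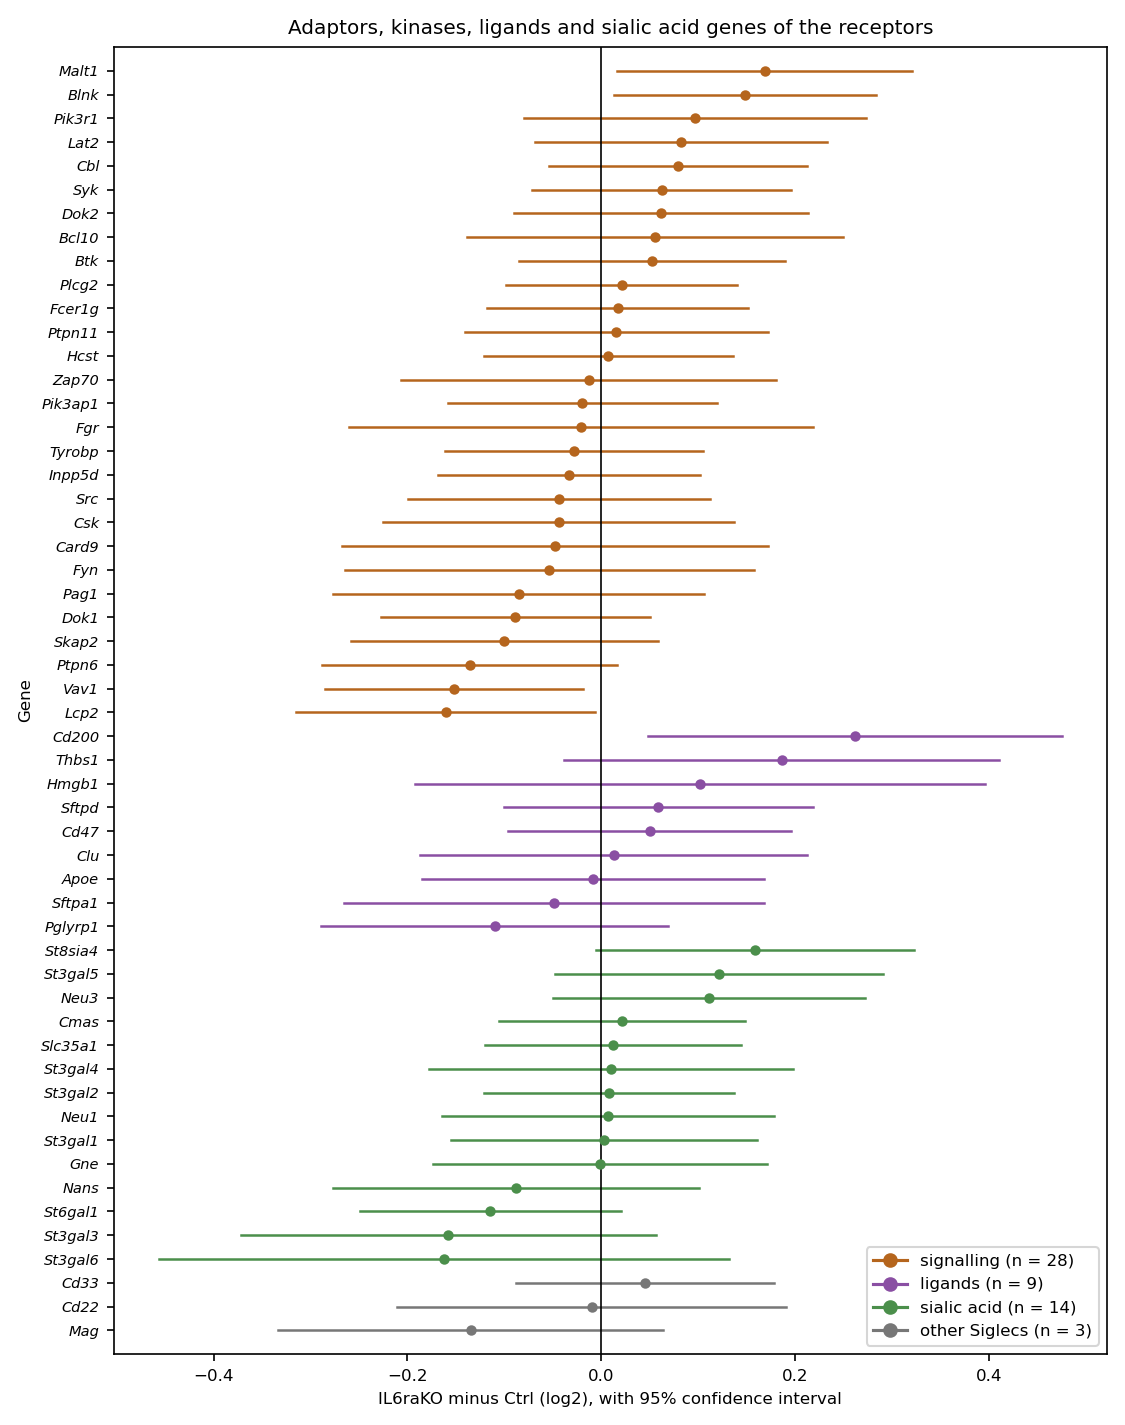
Difference in log2 expression between IL6raKO and Ctrl (horizontal axis) with 95% confidence intervals for the 54 measured partner genes, coloured as signalling, ligands, sialic acid genes and Siglecs named outside the symbol rule. The intervals of 49 genes include 0, and those of Cd200, Malt1, Blnk, Vav1 and Lcp2 do not.

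Ptpn6, the phosphatase that ITIMs recruit, was at 9.40, 9.45, 9.53 and 9.67 in Ctrl and 9.36, 9.33, 9.41 and 9.40 in IL6raKO. Ctrl replicate 4 was the highest array, and replicates 3 and 4 of IL6raKO reached just into the Ctrl range. The difference was -0.14 (SE 0.07, limma adjusted p = 0.708), and -0.08 without Ctrl replicate 4. Cd200, the ligand of Cd200r1, had the lowest p of the list. It was at 8.56, 8.38, 8.65 and 8.37 in Ctrl and 8.91, 8.50, 8.85 and 8.74 in IL6raKO. Replicates 1, 3 and 4 of IL6raKO were above all Ctrl arrays. The difference was 0.26 (SE 0.10, limma adjusted p = 0.652), beside 0.11 for its receptor. Cd47, the ligand of Sirpa, was at 12.39, 12.39, 12.23 and 12.19 in Ctrl and 12.37, 12.33, 12.39 and 12.31 in IL6raKO, a difference of 0.05 (SE 0.07), and 0.01 without Ctrl replicate 4.

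Of the 54 genes, 4 had groups that did not overlap, 2 higher and 2 lower, where 2.07% and 2.37% of all genes had. Vav1, an exchange factor downstream of Syk, was at 9.46 to 9.62 in Ctrl and 9.36 to 9.45 in IL6raKO, a difference of -0.15 (SE 0.06). Malt1, a protease that carries Syk signals to NF-κB, was at 9.19 to 9.41 and 9.42 to 9.54, a difference of 0.17 (SE 0.07). Blnk, an adaptor below Syk, was at 9.84 to 9.970 and 9.975 to 10.10, a difference of 0.15 (SE 0.06). St6gal1, which adds sialic acid to glycans, was at 8.31 to 8.50 and 8.24 to 8.30, a difference of -0.11 (SE 0.06). Lcp2, an adaptor beside Vav1, differed by -0.16 (SE 0.07), with overlapping groups. St6gal1 and Lcp2 were named after their values were seen. Among these 5 genes the limma adjusted p ran from 0.669 to 0.715.

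The cultures carried the marks of macrophages. Of 10 macrophage markers 9 were measured, all above the median of all genes, with Adgre1 at 12.35, Csf1r at 12.33 and Cd68 at 12.89 in Ctrl. None of the 6 marker lists had a gene that passed over all genes, where 0.0301% of all genes did. The counts of lower markers that follow stand beside 54.2% of all genes lower in IL6raKO. Beside Trem1, whose neutrophil expression is well known, 9 of 12 neutrophil markers were lower in IL6raKO, with a mean level of 6.29 to 6.54 in Ctrl and 6.18 to 6.43 in IL6raKO. Beside Siglecg, all 7 measured B cell markers were lower, where 54.2% of all genes were. Their mean levels were 5.61 to 5.73 and 5.48 to 5.58, without overlap, but only 1 of the 7 was above the median of all genes. Beside Siglech, 7 of the 9 genes listed for dendritic cells were lower, at 7.24 to 7.31 and 7.14 to 7.26. The list holds Klrk1, a gene of NK and T cells, so it is not purely one of dendritic cells. Klrk1 was its dimmest gene (3.83 in Ctrl, 3.89 in IL6raKO) and was not among the lower ones. Of the 7 measured T and NK cell markers 5 were lower, at 5.35 to 5.48 and 5.28 to 5.41. The part of such cells in the receptor values was not tested.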

How the data were processed

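Affymetrix whole-transcript arrays were hybridised with biotin-labelled cDNA, per the labels' protocols. The deposited table gives 1 value for each of 35556 probe sets on each of 8 arrays, on a log2 scale as judged from its range of 1.96 to 14.2. The submitters' processing notes name RMA and R 2.13.1. Which filters and genome build were used is not given in the sources used here. Precision is limited by the number of arrays. GEO's platform annotation gave 21789 probe sets 1 symbol, 1621 several and 12146 none. Per gene the probe set of highest mean was used.

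IL6raKO minus Ctrl was fitted with limma 3.58.1 in R 4.3.3 (lmFit, eBayes) over 19938 genes on all 8 arrays with no covariate. Benjamini-Hochberg adjustment ran over all genes, tests were two-sided and calls were made under 0.05. The procedure was run on simulated data as a check of its working. That run does not show that differences as small as those of the members can be found. Members, classes and lists were chosen with earlier results of these data known, and classes follow textbook roles. The value of each array, or the range of a group, is given for the 6 members of lowest p in each direction and a list of named members. The same holds for members without overlap, for Tyrobp, Fcer1g, Ptpn6 and Cd47, and for the 4 partner genes of lowest p. Alternatives were a trended robust variance, the replicate number as a block, filters on dim genes, re-scaling, array weights, other probe set rules and each array left out.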

Additional observations from a re-analysis of the deposited data

Results flagged for a closer look

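In 6 of 180 sets of 4 arrays (each receptor gene, partner gene, Il6ra and class median within a genotype), the most extreme value was separated from the rest by most of the range. About 9 such sets would arise by chance. Cd200r4 was at 8.08 in replicate 4 of IL6raKO, against 8.17 to 8.19 elsewhere in that genotype. Tyrobp reached 12.33 in Ctrl replicate 2, against 12.20 to 12.21. Slc35a1, the transporter of activated sialic acid, reached 6.95 in Ctrl replicate 3, against 6.78 to 6.80. The same gene reached 6.851 in replicate 1 of IL6raKO, against 6.836 to 6.838, a gap far smaller than its spread in Ctrl. St3gal3, a sialyltransferase, reached 7.35 in Ctrl replicate 4, against 6.95 to 6.98. St3gal5, another sialyltransferase, was at 8.27 in replicate 2 of IL6raKO, against 8.45 to 8.48.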

How the results depend on the processing

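Under each of the 17 alternatives, no receptor or partner gene that was tested passed over all genes (0 in each). All 33 and 54 were tested except above the median level (18 and 45) and above the 25th percentile (31 and 52), and the lowest limma adjusted p was 0.576 for a receptor gene and 0.489 for a partner gene. The sign of the difference changed under at least 1 alternative that tested it for 21 of the 33 receptor genes and never for 12, which include Pilra (0.12 to 0.24), Siglech (0.05 to 0.19), Cd200r3 (-0.37 to -0.12) and Pirb (-0.09 to -0.03). The count of called genes over the whole table, 6, was 22 with a trended and robust variance, 11 above the median level, 11 above the 25th percentile, 3 with quantile normalization applied again and 0 with all probe sets tested, and 0 to 1 with any 1 array left out, where fewer samples were fitted. The replicate number as a block gave 0 called genes and the same 0 receptor genes. Same-numbered arrays had correlations of their deviations between -0.01 and 0.04, so the numbers were not taken to pair them. Dim signal limits what can be seen for the 15 receptor genes below the median of all genes.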
